A study of Canis lupus familiaris with 6 samples.

Results

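The genes described here encode HSPB1 (also called HSP27) and its partners in the cytosolic heat shock system: the small heat shock proteins HSPB1, HSPB8 and CRYAB, the chaperones HSPA8, HSP90AA1 and HSP90AB1, the co-chaperones HSPH1, DNAJB1 and BAG3, and the transcription factor HSF1. They were taken by symbol, and all 10 had a row among the 12851 genes of the table and passed the filter on low values that left 12349 genes for testing. The list was chosen by name with the log2 fold changes of KO over WT already known, so the differences between the groups are a description here and carry no test of their own. The cells were MDCK Type II, a dog kidney epithelial line, in 3 wild-type libraries (WT, labelled as control) and 3 libraries of an MDCK Type II line with E-cadherin knocked out (KO, labelled as E-cadherin loss of function). Both groups were grown in the same medium with serum and antibiotics, and the labels differ on whether the dishes had reached confluency. The labels give no number of clones and do not say that libraries came from separate cultures, so the spread between libraries may be technical.

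Small heat shock proteins hold unfolding proteins in a soluble state without using ATP. HSP70 chaperones, of which HSPA8 is the constitutive cytosolic form, then refold or hand on these clients with J-domain proteins such as DNAJB1, which bring clients and stimulate ATP hydrolysis, and nucleotide exchange factors such as HSPH1 and BAG3, which release them. HSP90 acts later, on kinases, receptors and other near-native clients. HSF1 drives many of these genes when misfolded proteins accumulate, and in epithelial cells HSPB1 is also known for its link to the actin cytoskeleton.

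HSPB1 (ENSCAFG00845004436) fell almost completely in the knockout cells, BAG3 fell to 54.8% of its wild-type level, and the other members lay between 84.5% and 106% of theirs. In the linear model fitted to all genes, 6 of the 10 members were called lower in KO, none was called higher and 4 did not pass. Of all tested genes, 48.1% were called in either direction and 24.5% were called lower. The authors' deposited table also called 6 of these members at the same threshold, and 45% of the tested genes. The median log2 fold change of KO over WT was -0.15 for the 10 members and -0.01 for all tested genes. Without HSPB1 and BAG3 the remaining 8 members ranged from -0.24 to 0.09.

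**Figure D1:**
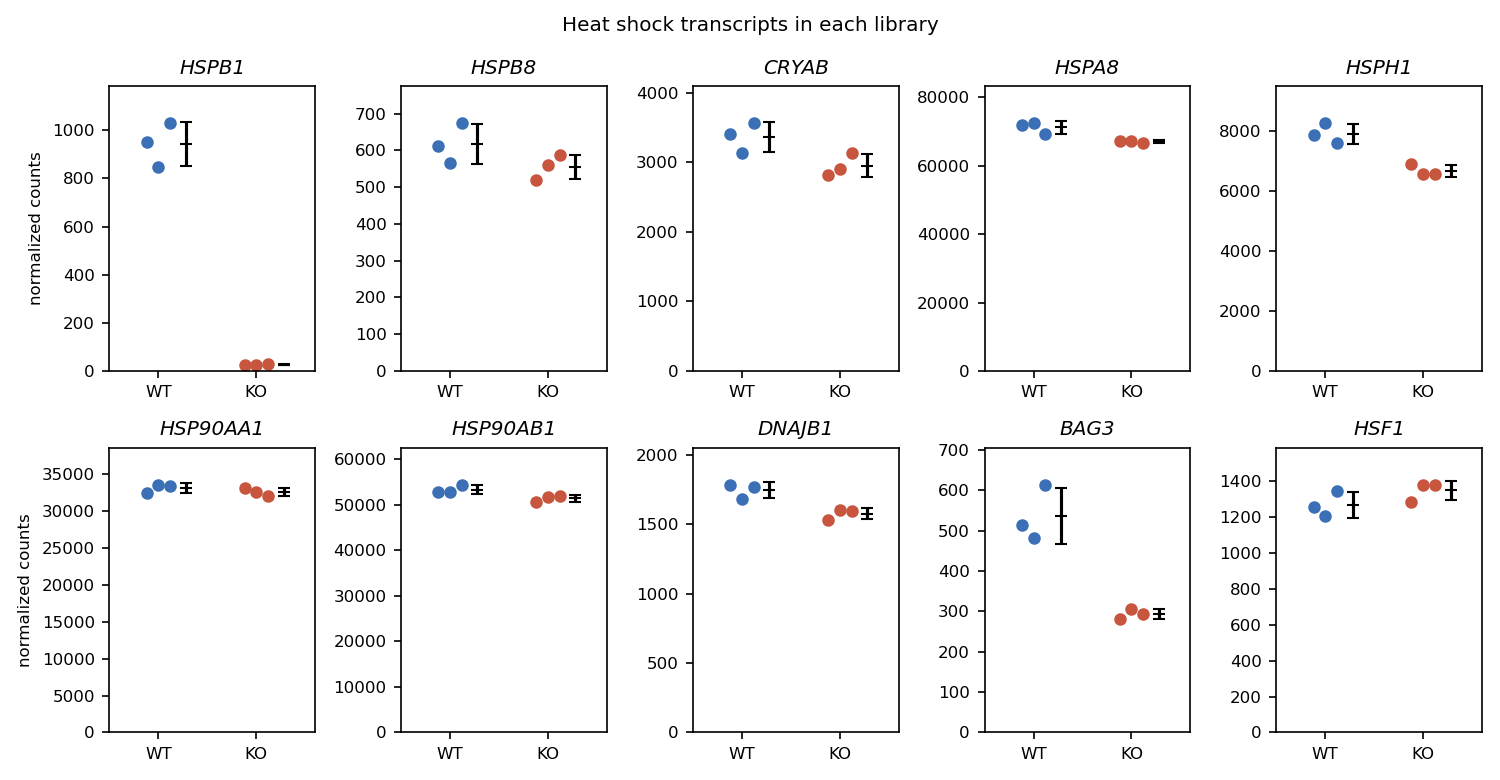
Normalized counts of the 10 heat shock genes (y axes, each from 0) in the 3 WT and 3 KO libraries; points are libraries, and the black bar beside them is mean ± SD. HSPB1 lies near 0 in KO, BAG3 groups are well apart, and the other genes differ little or overlap.

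The targeted gene was checked first. CDH1, which encodes E-cadherin, was at 38542, 39643 and 39370 normalized counts (WT) against 1115, 1120 and 1237 (KO), so the libraries carry the labels' genotypes. Library totals ran from 18281549 to 19386796 normalized counts. Divided by the estimated step that 1 read is worth in each library, they give about 16901257 to 22560128 reads. These read totals are inferred, not a measured depth. Correlations of log2 values across genes were 0.987 to 0.991 within groups and 0.934 to 0.940 between them. Of 10 kidney epithelial markers, 8 had values, with EPCAM and KRT18 abundant in both groups, and their summed level was 50183 to 53959 in WT and 46409 to 48852 in KO. Of 16 markers of immune, endothelial and mesenchymal cells, 5 had values, summing to 45233 to 48616 in WT and 46527 to 52732 in KO. All 5 were called in the limma fit: CD74, the largest of them, had a log2 fold change of 0.15, ACTA2, CD14 and PDGFRA rose 3.48-fold, 2.31-fold and 1.79-fold with no value above 61.0, and FLT1 fell 1.84-fold. The CD74 call was lost without WT replicate 2 (0.12), KO replicate 2 (0.15) or KO replicate 3 (0.11). Among the kidney markers CDH16 rose 3.91-fold and PAX8 1.36-fold, and CDH6 fell 1.53-fold. The other 11 markers of other cell types were not analysed here, and the part of other cell types in the results was not tested. In bulk RNA, fewer cells of a kind and less transcript per cell cannot be told apart.

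Among the small heat shock proteins, HSPB1 read 951, 847 and 1030 normalized counts in WT cells, against 24.5, 25.1 and 27.7 in KO cells. Every KO library was far below every WT library, and the KO values lay close together. The KO mean, 25.8 ± 1.69 (SD, n = 3), came to 2.73% of that in WT, 943 ± 91.5; the log2 fold change was -5.14 (SE 0.11), or 35.2-fold lower. Only 41 of the 12349 tested genes had a lower log2 fold change. The authors' deposited table gives HSPB1 a log2 fold change of -5.19 (SE 0.19). The residual signal rests on few reads: with the step that 1 read is worth in each library, the 3 KO values correspond to about 25, 28 and 29 reads, with exact 95% Poisson intervals of 16.2 to 36.9, 18.6 to 40.5 and 19.4 to 41.6. These intervals cover counting error only, and the read numbers are estimates because the step is inferred from the values. In WT the same conversion gives about 835, 956 and 1199 reads.

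HSPB8, the small heat shock protein that works with BAG3, was at 612, 565 and 674 (WT) against 519, 559 and 587 (KO). The groups overlapped, and the gene did not pass (log2 fold change -0.15, SE 0.080). It passed without WT replicate 2, its lowest WT library, at -0.21. CRYAB, alpha-B-crystallin, which is abundant in muscle and lens and also made in kidney, was at 3410, 3130 and 3565 (WT) against 2816, 2911 and 3140 (KO). Here too the highest KO library reached above the lowest WT library. The mean went from 3369 ± 220 to 2956 ± 166, a log2 fold change of -0.19 (SE 0.058) that was called in the fit, but the call was lost without WT replicate 1 (-0.18), WT replicate 3 (-0.15), KO replicate 1 (-0.15) or KO replicate 2 (-0.18), and with libraries rescaled to equal totals (-0.13). The only other small heat shock gene with values, HSPB6, which is best known from muscle, was at 166 ± 18.4 and 173 ± 11.3 and did not pass (adjusted p = 0.654, limma with Benjamini-Hochberg adjustment). The remaining 6 genes of the family list were not analysed here.

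The 3 small heat shock proteins took the same order of replicates within each group, although their group differences were unlike. Within each library, the count ratio of HSPB1 to CRYAB, which is not corrected for transcript length and is read only across libraries, was 0.271 to 0.289 in WT and 0.00863 to 0.00881 in KO. HSPB1, HSPB8, CRYAB, BAG3 and HSF1 each had their lowest WT value in replicate 2, their highest WT value in replicate 3 and their lowest KO value in replicate 1. HSPA8 and HSPH1 ran the other way in WT, highest in replicate 2 and lowest in replicate 3. The deviations from the group mean reached 0.20 on the log2 scale for BAG3 in WT replicate 3 and -0.15 for HSPB1 and for BAG3 in WT replicate 2. The median deviation of all tested genes in any library lay between -0.01 and 0.01. Of all tested genes, 40.9% were lowest in WT replicate 2, 35.7% highest in WT replicate 3 and 37.9% lowest in KO replicate 1. For the opposite order in WT, 37.8% were highest in replicate 2 and 32.7% lowest in replicate 3. The share of genes with these positions at once was not counted. With 3 libraries per group the shared order is a description.

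**Figure D2:**
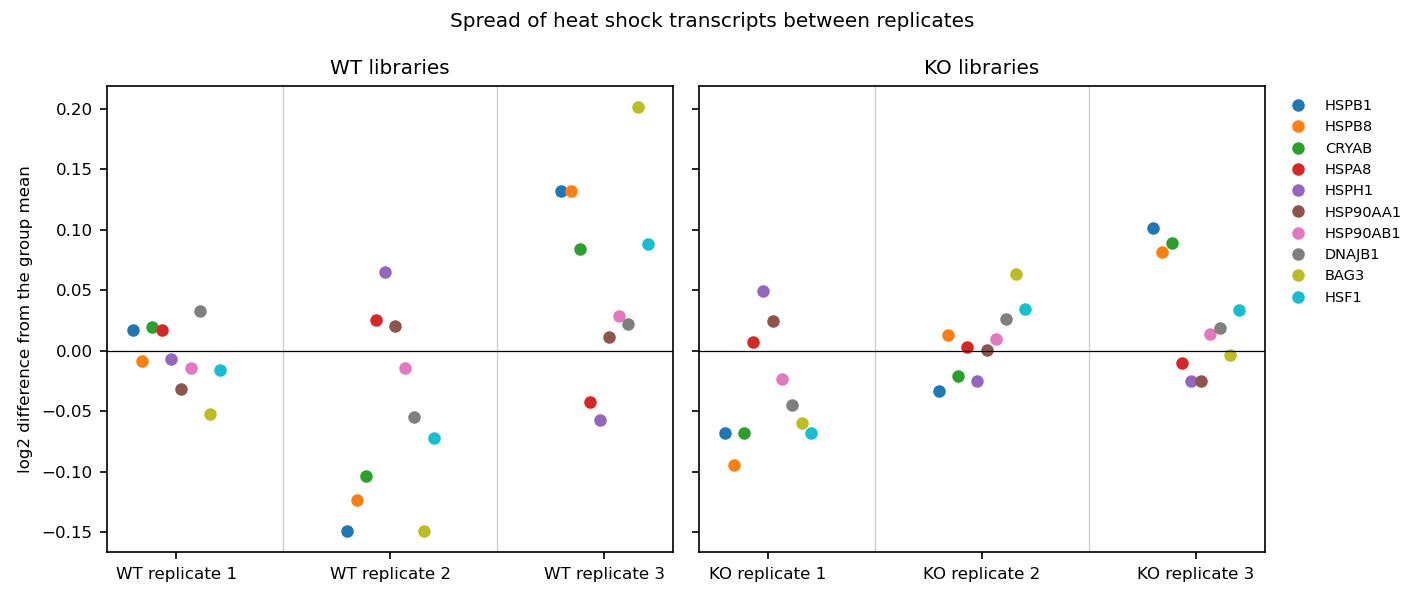
Difference of each heat shock gene from its own group mean (y axis, log2 of value + 1) in the 3 WT libraries (left) and the 3 KO libraries (right); each point is 1 gene in 1 library. HSPB1, HSPB8, CRYAB and BAG3 lie lowest in WT replicate 2 and highest in WT replicate 3, while HSPA8 and HSPH1 take the opposite order.

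BAG3 (ENSCAFG00845016933), the exchange factor that couples HSPA8 and HSPB8 to selective autophagy, was at 515, 482 and 614 (WT) against 282, 307 and 293 (KO). No KO library reached the WT range. The mean fell from 537 ± 68.9 to 294 ± 12.6, a log2 fold change of -0.86 (SE 0.093), 1.81-fold lower; the authors' deposited table gives BAG3 -0.87 (SE 0.12). Its partner HSPB8 did not pass, and the count ratio of BAG3 to HSPB8 in a library went from between 0.842 and 0.911 in WT to between 0.4997 and 0.549 in KO.

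HSPH1, an HSP110 protein that serves HSPA8 as exchange factor, was at 7847, 8245 and 7576 (WT) against 6897, 6550 and 6550 (KO). All 3 KO libraries were below all 3 WT libraries. The mean fell from 7889 ± 337 to 6666 ± 200 (log2 fold change -0.24, SE 0.044). HSPA8 itself was at 72095, 72489 and 69187 (WT) against 67381, 67186 and 66556 (KO). The groups did not overlap, but the difference was small, at 94.1% of the WT mean (log2 fold change -0.09, SE 0.031). Its call was lost without WT replicate 1 (-0.08), WT replicate 2 (-0.08), KO replicate 1 (-0.09), KO replicate 2 (-0.09) or KO replicate 3 (-0.08), and with libraries rescaled to equal totals, where the log2 fold change was -0.03. In limma without trend and robust options HSPA8 did not pass either (adjusted p = 0.163). DNAJB1 was at 1786, 1681 and 1772 (WT) against 1529, 1606 and 1598 (KO). These values did not overlap either, and the mean went from 1746 ± 57.0 to 1578 ± 42.1 (log2 fold change -0.15, SE 0.051). The DNAJB1 call was lost without WT replicate 1 (-0.13), WT replicate 3 (-0.14), KO replicate 1 (-0.12), KO replicate 2 (-0.16) or KO replicate 3 (-0.16), and with equal totals (-0.09).

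The cytosolic HSP90 genes were close to level. HSP90AA1, the stress-inducible form, was at 32371, 33561 and 33344 (WT) against 33165, 32607 and 32036 (KO). The groups overlapped (log2 fold change -0.02, SE 0.033, not passing). HSP90AB1, the constitutive form, was at 52795, 52816 and 54409 (WT) against 50563, 51723 and 51860 (KO). The KO libraries were all lower, at 96.3% of the WT mean, and the gene did not pass (log2 fold change -0.05, SE 0.031). For both genes the sign of the fold change turned when libraries were rescaled to equal totals (0.035 and 0.0028). HSPA8, HSP90AA1 and HSP90AB1 made up 90.4 to 90.8% of the summed normalized counts of the 10 members in WT and 91.7 to 91.9% in KO, and the members together held 0.878 to 0.921% of each library's total.

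HSF1, which activates heat shock genes, was the only member with a positive fold change. It was at 1255, 1206 and 1348 (WT) against 1288, 1382 and 1381 (KO). The groups overlapped and the gene did not pass (log2 fold change 0.09, SE 0.059); with libraries rescaled to equal totals it passed, at 0.15. HSF1 is controlled mainly at the protein level, which these data do not measure. In all, 6 of the 10 members had KO values entirely below the WT values, where 28.6% of all tested genes did so and 56.4% did not overlap in one direction or the other.

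The rest of the cytosolic chaperone network changed in both directions. Of 57 tested genes in 7 lists that are not among the 10 members, 24 fell, 11 rose and 22 did not pass, with a median log2 fold change of -0.06. That is 61.4% called, against 48.1% of all tested genes. With libraries rescaled to equal totals, 14 fell and 13 rose. Over all genes the same rescaling changed the split from 3021 lower and 2920 higher to 2371 lower and 3572 higher, and the median of tested genes from -0.01 to 0.05.

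In the HSP70 and HSP110 list, 3 of 5 other tested genes rose and 1 fell. The HSP110 relatives of HSPH1 were higher: HSPA4L rose from 210 ± 18.5 to 369 ± 19.0 (log2 fold change 0.81, SE 0.093, adjusted p = 8.34e-06 in limma) and HSPA4 from 7327 ± 848 to 10903 ± 893 (0.58, adjusted p = 0.000618). HSPA2, an HSP70 best known from testis, rose 1.49-fold (adjusted p = 2.14e-05). HSPA14, a ribosome-associated HSP70, fell by 0.25 (adjusted p = 0.0288); this did not hold when WT replicate 2 (0.0975), KO replicate 2 (0.0561) or KO replicate 3 (0.106) was left out, and the adjusted p ran from 0.00999 to 0.114 over all alternatives. A row with the dog symbol HSP70, added after its values were seen, was at 2484, 2199 and 2574 (WT) against 2559, 2627 and 2655 (KO), overlapping and not passing (log2 fold change 0.11, adjusted p = 0.124). Reads shared between near-identical HSP70 and HSP90 copies could not be assessed.

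**Figure D3:**
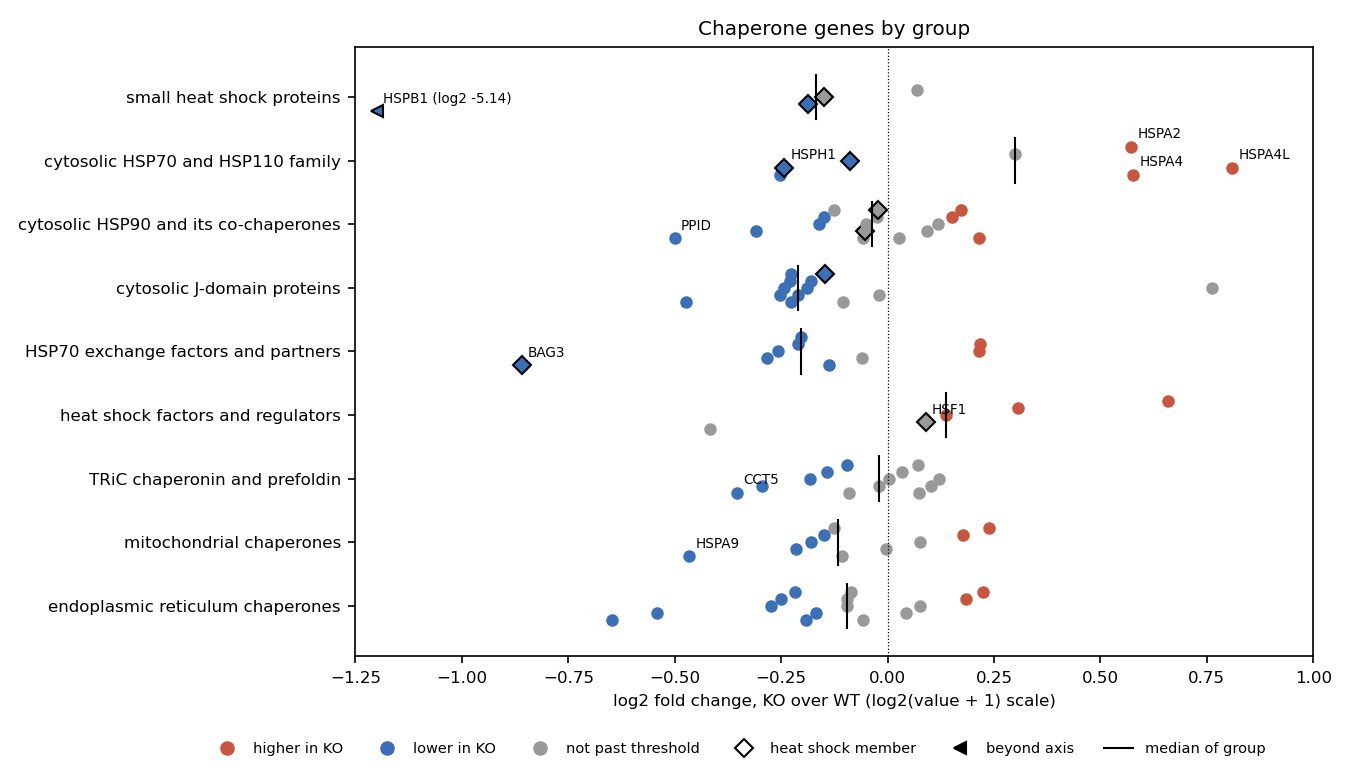
Log2 fold change of KO over WT (x axis) for tested genes of 9 chaperone lists (rows); points are genes, diamonds the 10 heat shock members, colours the call, and the short black line the median of the list with its members. HSPB1 (log2 -5.14) lies beyond the axis and is drawn at its edge; J-domain genes lie mostly to the left and HSPA4L, HSPA4 and HSPA2 to the right.

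J-domain co-chaperones were mostly lower: 9 of 12 tested genes other than DNAJB1 fell, 0 rose and 3 did not pass, with a median of -0.22. With libraries rescaled to equal totals, 7 fell and 0 rose, with a median of -0.16. DNAJA1, a main partner of HSPA8, fell from 6430 ± 47.5 to 5400 ± 146 (log2 fold change -0.25, adjusted p = 0.000164). DNAJC9, a histone co-chaperone, DNAJC7 and DNAJB6, which suppresses aggregation, fell by 0.21, 0.23 and 0.23. Of 8 exchange factors and partners other than BAG3, 5 fell and 2 rose, and with equal totals 4 fell and 2 rose. BAG5, BAG4, BAG1 and BAG6 fell by 0.26, 0.28, 0.21 and 0.20, each less than BAG3, whose difference from them was not tested. STUB1, the ubiquitin ligase CHIP that tags clients of HSPA8, rose 1.16-fold (adjusted p = 0.00391). The other gene that rose was BAG2, added after its values were seen (adjusted p = 0.0347 in limma). The BAG2 call was lost without WT replicate 1 (log2 fold change 0.19), WT replicate 2 (0.20), KO replicate 1 (0.21), KO replicate 2 (0.24) or KO replicate 3 (0.20). BAG2 also did not pass in the authors' deposited table (log2 fold change 0.21).

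HSP90 co-chaperones were divided, with 4 of 14 tested genes lower, 3 higher and 7 not passing (median -0.04), and 2 lower and 3 higher with libraries rescaled to equal totals. The cyclophilin PPID fell from 1697 ± 55.0 to 1199 ± 16.0 (log2 fold change -0.50, adjusted p = 2.53e-06), while the immunophilin FKBP4 rose 1.16-fold. CACYBP fell by 0.16, a call lost with libraries rescaled to equal totals (adjusted p = 0.0763, in a range of 0.00640 to 0.0763). STIP1, AHSA1 and CHORDC1, which HSF1 is known to induce and which were chosen after their values were seen, did not pass (log2 fold changes -0.06, -0.02 and -0.05).

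In the chaperonin TRiC and prefoldin, 5 of 13 tested subunits fell and 8 did not pass, with a median of -0.02. CCT5 fell from 12048 ± 360 to 9429 ± 191 (log2 fold change -0.35, adjusted p = 5.55e-06), CCT3 by 0.14 and the prefoldin subunits PFDN1 and VBP1 by 0.18 and 0.30. With libraries rescaled to equal totals the counts were 1 lower and 2 higher: CCT7 also lost its call, at a log2 fold change of -0.04, and CCT4 and PFDN5 passed, at 0.13 and 0.18. Under that scaling CCT3 (adjusted p = 0.0567), PFDN1 (0.0656) and VBP1 (0.0592) no longer passed, and VBP1 also failed without KO replicate 3 (0.0539); their ranges over the alternatives were 0.00200 to 0.0619, 0.00547 to 0.0656 and 0.00325 to 0.0647. Of 4 other heat shock factors and regulators, 3 rose. HSF4, known from lens, went from 38.5 ± 7.46 to 61.1 ± 9.54, HSF2 rose 1.24-fold and the HSF1-binding protein HSBP1 1.10-fold. Each of these calls was lost without 1 library: without KO replicate 2, HSF4 (adjusted p = 0.0722, range 0.00849 to 0.0722), HSF2 (0.117, range 0.00961 to 0.117) and HSBP1 (0.103, range 0.00202 to 0.103) did not pass, nor did HSF2 without WT replicate 1 (0.0544) or HSBP1 without WT replicate 3, where it lay at the threshold.

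Of 15 further genes listed as targets of HSF1 or of proteotoxic stress, 12 were tested. All 12 were called, 9 lower and 3 higher, with a median of -0.22, where 48.1% of all tested genes were called. With libraries rescaled to equal totals, 7 were lower and 3 higher, with a median of -0.17. PPP1R15A, the phosphatase subunit GADD34 of the integrated stress response, fell from 2085 ± 206 to 1033 ± 46.1 (log2 fold change -1.01, adjusted p = 5.18e-08). The autophagy receptor SQSTM1 fell from 12487 ± 725 to 9072 ± 450 and the stress factor ATF3 by 0.51, whereas heme oxygenase HMOX1 rose 1.61-fold. These 4 genes are also targets of other stress pathways. HSPD1, a mitochondrial chaperonin, fell by 0.15, a call lost without KO replicate 3 (adjusted p = 0.0575), without trend and robust options (0.0737) and with equal totals (0.111), in a range of 0.00559 to 0.111.

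The route that BAG3, HSPB8, HSPA8 and STUB1 serve together, chaperone-assisted selective autophagy, clears damaged filamin. Besides these 4 genes, SQSTM1 fell as above, and the actin adaptor SYNPO, synaptopodin, fell from 1596 ± 127 to 1093 ± 36.1 (adjusted p = 1.01e-05). FLNA, filamin A, was at 40376 ± 1378 and 39391 ± 2029 and did not pass (adjusted p = 0.498), and FLNC lay under the filter on low values. In this list, members included, 5 of 8 tested genes fell and 1 rose, where 24.5% of all tested genes were called lower and 23.6% higher. Of its 5 tested genes that are not members, 3 fell and 1 rose, and the same counts held with libraries rescaled to equal totals.

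Chaperones of other compartments were compared by their counts. In the mitochondrial list, 4 of 10 tested genes fell and 2 rose (median -0.12; 2 fell and 2 rose with equal totals), with the HSP70 HSPA9 falling from 10921 ± 73.7 to 7905 ± 92.3 and the HSP90 TRAP1 rising 1.18-fold. In the endoplasmic reticulum list, 7 of 15 fell and 2 rose (median -0.10), DNAJB9 falling 1.57-fold and DNAJB11 1.46-fold. With equal totals, 6 genes of that list fell and 3 rose, with a median of -0.04.

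The members were also set beside their neighbours in gene order. The 10 nearest tested neighbours of HSPB1, 5 on each side, had log2 fold changes of -0.31 to 0.76 with a median of -0.14, none near the -5.14 of HSPB1 itself: MDH2 and YWHAG fell by 0.25 and 0.24, and HIP1 rose by 0.76. BAG3 also lay below all 10 of its neighbours, whose median was 0.05. HSPH1, by contrast, lay in a stretch where 7 of 10 neighbours fell and none rose, with a median of -0.45; 8 of the 10 had a lower fold change than HSPH1 itself, among them FRY (-1.18), KATNAL1 (-0.63) and HMGB1 (-0.43). For HSPA4, looked at after its values were seen, 8 of 10 neighbours rose and none fell (median 0.45), close to its own 0.58. HSPB8 stood among 7 neighbours that fell and 1 that rose (median -0.21). The part of these neighbourhoods in the values of HSPH1, HSPA4 and HSPB8 was not tested.

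**Figure D4:**
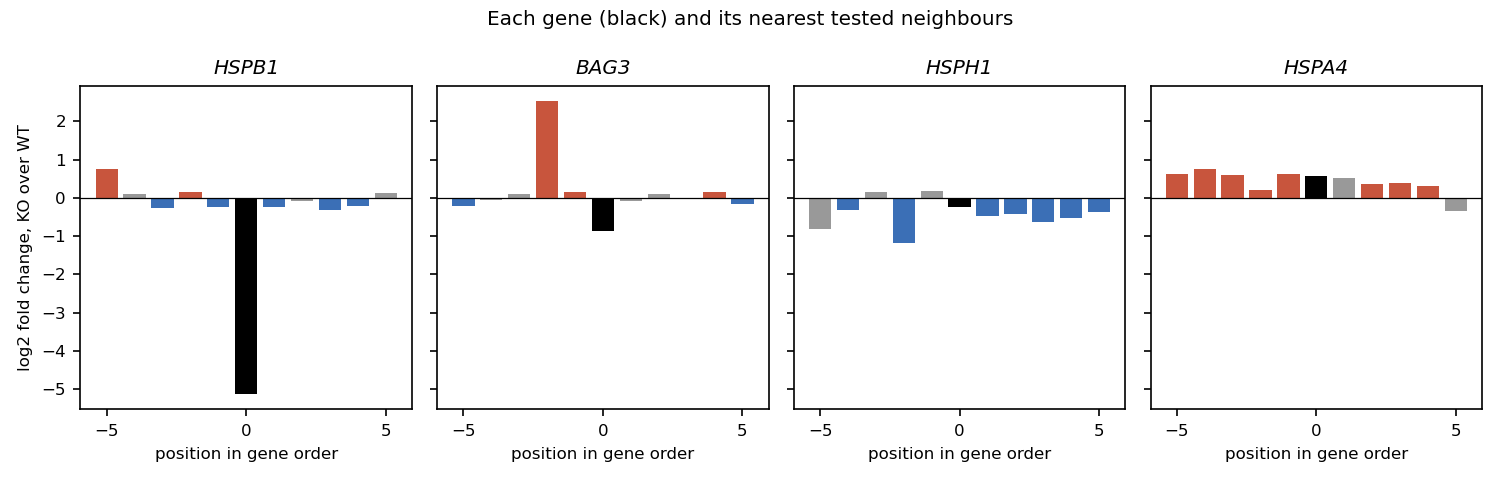
Log2 fold change of KO over WT (y axis) of HSPB1, BAG3, HSPH1 and HSPA4 (black bars at 0) and of the 5 nearest tested genes on each side in gene order (x axis, rank not distance), coloured red where called higher, blue where called lower and grey where not passing. HSPB1 and BAG3 lie below all of their neighbours, while HSPH1 and HSPA4 lie within the range of theirs.

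The gene whose profile over the 6 libraries was most like that of HSPB1 was CDH1 itself, the targeted gene. After centring each log2 profile on its own mean, the root mean square difference from HSPB1 was 0.091 for CDH1, 0.24 for ANTXR2 and 0.33 for IL18R1, among named genes with a mean of at least 100. ANTXR2, an anthrax toxin receptor, was at 557, 624 and 596 (WT) against 11.95, 10.04 and 15.6 (KO). IL18R1, an interleukin-18 receptor chain, was at 740, 696 and 689 (WT) against 28.3, 25.3 and 15.8 (KO). With 2 groups of 3 libraries this measure takes in mainly the size of the group difference.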

How the data were processed

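The submitters' processing notes name the aligner STAR 2.5.2b, the counter featureCounts, DESeq2 1.14.1, and FastQC and Picard 2.8.1 for quality; no build or annotation is given in the sources used here. Per the labels, poly-A RNA was made into stranded libraries. The authors deposited 1 table with a signal per gene and library, normalized counts that are not whole, and, per the file headers, their own log2 fold change with its standard error, a score (fold change over error), p-values and adjusted p-values. Of values under 12, 69.8 to 80.7% lay within 0.1 of a whole multiple of 1 step per library, too few to recover whole reads, and limma, named in the design for that case, took the place of a count test.

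The scale was log2(value + 1), which understates changes of low genes. For 12349 genes, those whose mean reached 10, a model on group was fitted with limma 3.58.1 (R 4.3.3, trend and robust options, two-sided) and Benjamini-Hochberg adjustment over all of them, at a threshold of 0.05. The step was tested on simulated data. The members, the gene lists and the alternatives were chosen with earlier results of these data known. Named genes are the 10 members, CDH1, up to 4 called genes per list with the smallest adjusted p, the 3 genes most like HSPB1, and called neighbours; others are marked, and some genes the rule takes are left out of this text. The same symbol on several rows was taken at its highest mean. Gene order, used only for neighbours, came from the dog assembly UU_Cfam_GSD_1.0, in which 9777 of 10003 tested symbols had a place. Alternatives were rescaled libraries, other pseudocounts and filters, limma without trend and robust options, a replicate block, leaving out each library, and the authors' calls.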

Additional observations from a re-analysis of the deposited data

Results flagged for a closer look

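The authors' deposited mean of normalized counts is a column that the comparison did not use. The 6-library mean was at most 1.5 times that column, a value reached by 60 genes, as it would be if the column averaged 9 libraries. If 3 further libraries entered it, they would average 4044 normalized counts for CRYAB and 36609 for HSP90AA1, above each of the 3 WT libraries of these genes. By the same arithmetic HSPB1 would average 804 in them, between its KO and WT values, and BAG3 204, below both groups. Those libraries are not analysed here, and their cells are unknown.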

How the results depend on the processing

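HSPB1, BAG3 and HSPH1 were called lower under each of the 15 alternatives run, with log2 fold changes of -5.21 to -4.94, -0.93 to -0.76 and -0.27 to -0.19. The number of members called was 6; it was 3 in limma without trend and robust options and 3 to 6 when 1 library was left out, CRYAB, HSPA8 and DNAJB1 being those lost and HSPB8 gained without WT replicate 2; the cause was not tested. With libraries rescaled to equal totals 4 members were called, HSF1 now among them, and the fold changes of HSP90AA1 and HSP90AB1 turned to 0.035 and 0.0028. The counts over all genes (5072 to 6118) and over the wider cytosolic lists (26 to 36, against 35) stayed within 1.5 times. Deviations of same-numbered libraries correlated at 0.05, -0.03 and -0.04, within the range of differently numbered ones (-0.07 to 0.09). These values show no pairing by replicate number. They cannot exclude it, because the deviations of 3 libraries cancel within each group and so are not independent. With a replicate block 6118 genes, 6 members and 35 genes of the wider lists were called. HSPB1 in KO rests on about 25 to 29 reads a library, which limits the precision of its fold change.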
